A study of Mus musculus with 8 samples.

Results

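Klf6 binding was mapped by ChIP-seq in immature oligodendrocytes (iOL), the cells that progenitors become after exposure to the thyroid hormone triiodothyronine (T3). The iOL data were 2 lists of peaks, here called iOL A and iOL B, each called by the authors in 1 ChIP sample against its own input chromatin. iOL A held 10225 peaks and iOL B held 5777, which made 16002 of the 36280 peaks listed for the whole series. The account starts from the iOL A peaks that lay within 500 bp of an iOL B peak on the same chromosome, wherever they lay relative to genes. There were 3260 of these shared peaks, 31.9% of iOL A (95% Wilson interval 30.99% to 32.8%).

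The cells were primary oligodendrocyte progenitors (OLP) from the cortex of C57BL/6 mice in the first postnatal week, enriched on plates coated with antibody to the receptor Pdgfra and grown in Sato medium with the mitogens PDGF-AA and bFGF. The iOL samples received T3 at 40 ng/ml for 18 h, and the OLP samples were left without T3. The paper describes T3 as given in differentiation medium after growth in the mitogens, so the stages can differ in medium as well as in T3. Each stage had 2 Klf6 ChIP samples, lettered A and B and given by the study as biological replicates, and 2 inputs without a peak list of their own. A rabbit polyclonal antibody to Klf6 was used throughout, so every list shares any property of that antibody. Peak lists carry no expression values, so the identity of the cells could not be checked against marker genes. How many reads each sample yielded is not given in the sources used here. The tag counts were left unscaled, and samples were therefore compared mainly by where peaks lay.

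Klf6 is a zinc finger transcription factor of the Krüppel-like family, whose members bind GC-rich boxes and CACCC elements in promoters and enhancers. In ChIP-seq, DNA fragments recovered with an antibody are sequenced, aligned to the genome and piled up as tags, and a peak is a place where tags exceed those of the input. Much of a mouse genome is repeated sequence, above all LINE-1 (L1) retrotransposons, which copied themselves through an RNA made from the element and carry a pair of reading frames. The longer frame encodes an endonuclease and a reverse transcriptase.

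The sequences shown here carry the main observation, that most iOL peaks lay in L1 copies. All are from mm9 (NCBIM37), printed 5′ to 3′ along the L1 element. The element was taken from the genome itself: among 3793 reading frames of at least 1200 codons, 3003 were of exactly 1300 codons, at a median identity of 98.9% to their majority sequence. The copy used as the element spans 6667 bp of the minus strand at chr5:102619789-102626455, with frame 1 at positions 919 to 2070 and frame 2 at positions 2057 to 5956. The stretch of frame 2 given first identifies the element, since it encodes the amino acids F-A-D-D, in capitals, of the reverse transcriptase active site. It lies at element positions 4208 to 4267, chr5:102622189-102622248, minus strand.
L1 reverse transcriptase motif: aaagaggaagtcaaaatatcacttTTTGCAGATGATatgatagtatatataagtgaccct
The second set covers element positions 5821 to 5880, around the 20 bp (5841 to 5860) that held the most shared peak summits, 40 in all. The element itself is at chr5:102620576-102620635 on the minus strand. Of the shared peaks there, 4 with many tags in both lists follow, each read on the plus strand, with capitals at bases that differ from the element. They had 20, 18, 16 and 16 tags in iOL A and 35, 24, 17 and 18 in iOL B, in the order printed.
L1 element: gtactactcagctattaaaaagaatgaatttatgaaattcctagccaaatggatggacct
chr4:54262019-54262078: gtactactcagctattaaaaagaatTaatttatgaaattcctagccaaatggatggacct
chr7:76164051-76164110: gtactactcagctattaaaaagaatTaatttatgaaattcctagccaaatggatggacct
chr8:75504921-75504980: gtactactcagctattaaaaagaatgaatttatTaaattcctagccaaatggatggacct
chr4:70662825-70662884: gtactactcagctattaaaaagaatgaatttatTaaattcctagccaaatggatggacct
Each of the 4 peaks had 1 base that differed from the element. The peaks at chr4:54262019-54262078 and on chromosome 7 had the same change, and so did the pair of the other 2 peaks. The 100 bases around the iOL A summit are given for 4 further L1 peaks, of genes described below, with capitals again at bases unlike the element. They lie at chr17:39497039-39497138 (plus strand, Gm20579), chr2:127498300-127498399 (plus, Mal), chr3:133888110-133888209 (minus, Cxxc4) and chr2:145067167-145067266 (minus, Slc24a3).
Gm20579: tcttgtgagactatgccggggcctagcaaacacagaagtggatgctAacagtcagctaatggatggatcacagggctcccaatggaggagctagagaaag
Mal: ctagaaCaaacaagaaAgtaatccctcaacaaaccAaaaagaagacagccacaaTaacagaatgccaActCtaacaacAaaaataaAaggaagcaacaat
Cxxc4: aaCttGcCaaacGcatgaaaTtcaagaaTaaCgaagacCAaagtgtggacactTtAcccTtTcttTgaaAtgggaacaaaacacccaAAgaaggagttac
Slc24a3: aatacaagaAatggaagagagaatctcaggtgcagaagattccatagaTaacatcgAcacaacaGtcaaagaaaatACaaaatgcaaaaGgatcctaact
Over these 100 bases the number of differing bases was 1 for Gm20579, 7 for Slc24a3, 8 for Mal and 17 for Cxxc4.

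The shared peaks were short, low and sharply placed. Their median length was 148 bp in iOL A (interquartile range 110 to 178), and they held a median of 10 tags in iOL A (8 to 14) and 15 in iOL B (12 to 20). The median fold enrichment, the authors' ratio of tags to the tags expected there, was 19.85 in iOL A and 12.68 in iOL B. The lists opened at 7 tags in iOL A and 10 in iOL B, and their medians over all peaks were 8 and 13 tags. The peak summits, where tags were most numerous, lay a median of 4 bp apart in the 2 lists (interquartile range 2 to 9), and 2577 of the 3260 pairs (79.0%) were at most 10 bp apart. A base was shared by 3075 of the pairs. Seen from the smaller list, 3176 of 5777 iOL B peaks (55.0%, 53.7% to 56.3%) had an iOL A peak within 500 bp. Across the 3260 pairs, Spearman's correlation was 0.52 for tags and 0.44 for fold enrichment, over peaks that come from the same pair of libraries and often from copies of the same sequence.

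The share of iOL A peaks with a peak in iOL B rose with the number of tags up to 20 and was lower beyond. It was 12.6% of the 3350 peaks with 7 tags, 41.03% of the 909 with 10 tags and 74.0% of the 500 with 16 to 20 tags. It was then 62.1% at 21 to 30 tags, 22.0% at 31 to 100 tags and 32.7% above 100 tags, where 55 peaks remained. Within each class up to 100 tags, L1 peaks were more frequent among those found in iOL B than among the others. At 16 to 20 tags, 94.0% of the found peaks had their summit in L1 against 30.8% of those not found. At 21 to 30 tags these shares were 90.2% and 11.1%, whereas above 100 tags no peak of either kind was in L1. The plot of iOL A peaks by tags shows both shares.

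**Figure D1:**
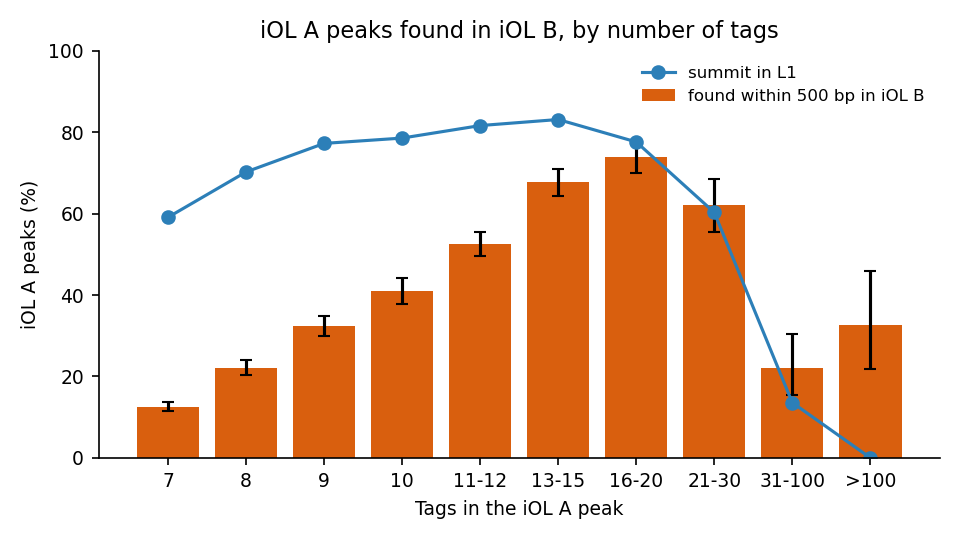
Bars give the percentage of iOL A peaks with an iOL B peak within 500 bp, by the number of tags in the iOL A peak, with 95% Wilson intervals. The line gives the percentage of all iOL A peaks of the class whose summit lay in L1. The bars climb from 12.6% at 7 tags to 74.0% at 16 to 20 tags, and the line falls from 77.6% there to 0% above 100 tags.

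L1 sequence held the summits of 3001 of the 3260 shared iOL peaks, 92.1% (91.1% to 92.9%). Alignments of the element covered 11.79% of the genome's bases. L1 held 69.4% of all iOL A summits (7101 peaks) and 79.1% of iOL B summits (4568 peaks). Among the peaks without a partner in the other list it held less, 58.9% in iOL A and 63.1% in iOL B. The L1 share was 93.5% for shared peaks with no TSS listed by the authors and 85.2% for the 575 with one. How aligned reads that match several places in the genome were treated is not given in the sources used here. Its part in these shares was not tested.

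**Figure D2:**
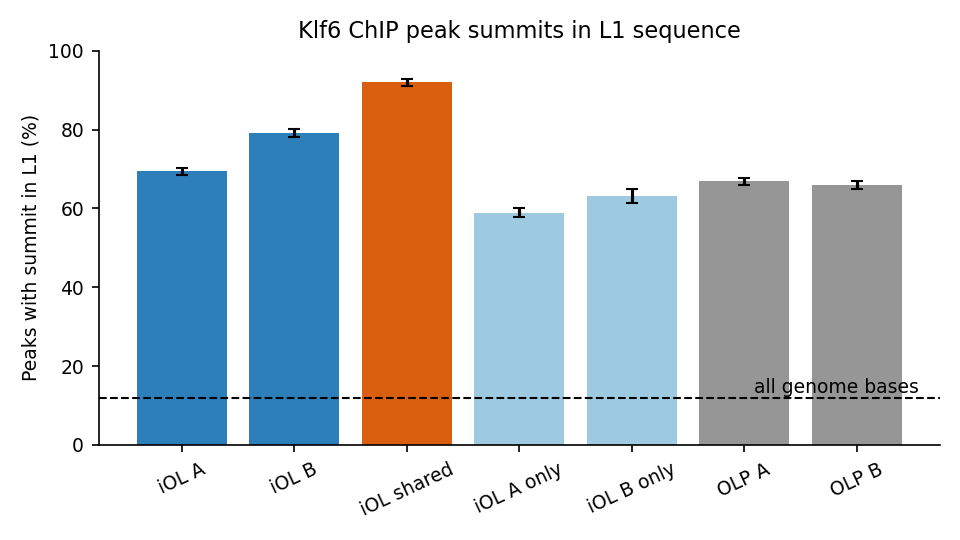
Percentage of peaks whose summit lay in L1 sequence, with 95% Wilson intervals that cover counting error only, for the 2 iOL lists, the shared iOL peaks, the iOL peaks found in 1 list and the 2 OLP lists. The dashed line marks the 11.79% of genome bases that aligned to the element, which is what counts as L1 here. The shared iOL bar stands at 92.1%, above both unshared iOL bars at 58.9% and 63.1%.

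The L1 copies under the shared peaks were close relatives of the element. The alignment around the summit ran over a median of 5884 bp, and 1925 of the 3001 (64.1%) ran over 5000 bp or more. Identity to the element was 90% to 95% for 50.95% of the shared L1 peaks and 95% to 100% for 41.75%, whereas these classes hold 26.1% and 15.7% of the genome's L1 bases. Copies under 80% identity, with 24.8% of the L1 bases, held 7 shared peaks (0.23%). Of the L1 peaks found in iOL A alone, 27.8% were in the class of 95% to 100% and 2.93% in that under 80%. The element lay on the plus strand under 1597 shared peaks (53.2%).

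Along the element, the shared peaks spread over the body and were nearly missing from both ends. Positions 1101 to 6400 held 2903 of the 3001 summits, at 1.11 to 5.61 shared peaks per 1000 genome copies of each 100 bp, counting copies of at least 90% identity. The first 800 positions, which hold the element's own promoter and 5′ untranslated part, held 8 summits, at most 0.33 per 1000 copies. Peaks in L1 copies whose 5′ ends did not align to this element could not be counted there. Beyond position 6400 the density fell to 0.67 (29 summits), 0.20 (9) and 0.07 (2) per 1000 copies in the last 3 bins. The highest density, 5.61 per 1000 copies, was at positions 3101 to 3200 in frame 2. The number of peaks per 100 bp was ordered alike in the lists, with Spearman's correlations over the 67 bins of 0.92 between iOL A and iOL B, 0.94 between iOL A and OLP A, and 0.78 between iOL B and OLP B. These bins share the number of copies in the genome and the aligner, and the values are a description.

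**Figure D3:**
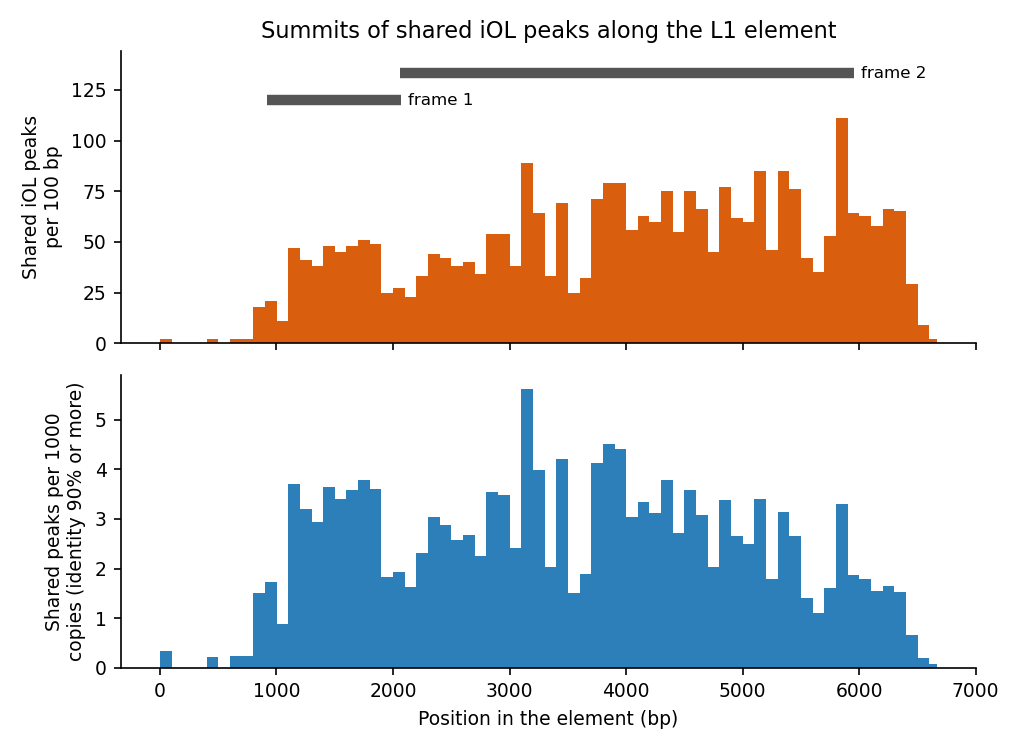
The upper panel counts shared iOL peak summits in each 100 bp of the 6667 bp L1 element, with bars above for its reading frames. The lower panel divides each count by the number of genome copies of that stretch with at least 90% identity, times 1000. Both panels are nearly empty over the first 800 positions and low beyond position 6400, and the lower panel peaks at 5.61 at positions 3101 to 3200.

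At the summit itself, the shared L1 peaks sat on an uncommon variant of a common sequence. The stretch of 32 bases centered on the summit had a median of 17 copies in the genome (interquartile range 8 to 39). The stretches centered 20 bp before and after the summit had medians of 6070 and 3755 copies. The summit stretch had fewer copies than the median stretch of its own 200 bp window in 2686 of the 3001 peaks (89.5%). It occurred once in the genome in 126 peaks (4.20%) and 2 to 100 times in 2593 (86.4%). For 431 peaks (14.4%) the same summit stretch was that of another shared peak, and 180 of the 199 stretches found at several peaks were on more than 1 chromosome.

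The bases at the summit also differed from the element more often than those beside it. This was measured in the 2989 shared L1 peaks away from the ends of the element. Of bases within 5 bp of the summit, 7.7% differed from the element, against 4.1% at 30 to 60 bp. Bases without a partner in the alignment counted as differing. The difference was highest 1 base before the summit, at 10.37%. The L1 peaks found in iOL A alone had a median of 35 copies at the summit and differing bases of 7.4% near and 6.2% away from it. The 259 shared peaks outside L1 differed, with median copies of 409 at -20 bp, 11 at the summit and 21 at +20 bp. Farther out the medians were lower than at the summit, at 2 copies at -100 bp and 1 at +100 bp. The windows of these 259 peaks had a median of 10 copies, and the summit stretch was the rarer in 39.8% of them. The part of read placement in these patterns was not tested.

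**Figure D4:**
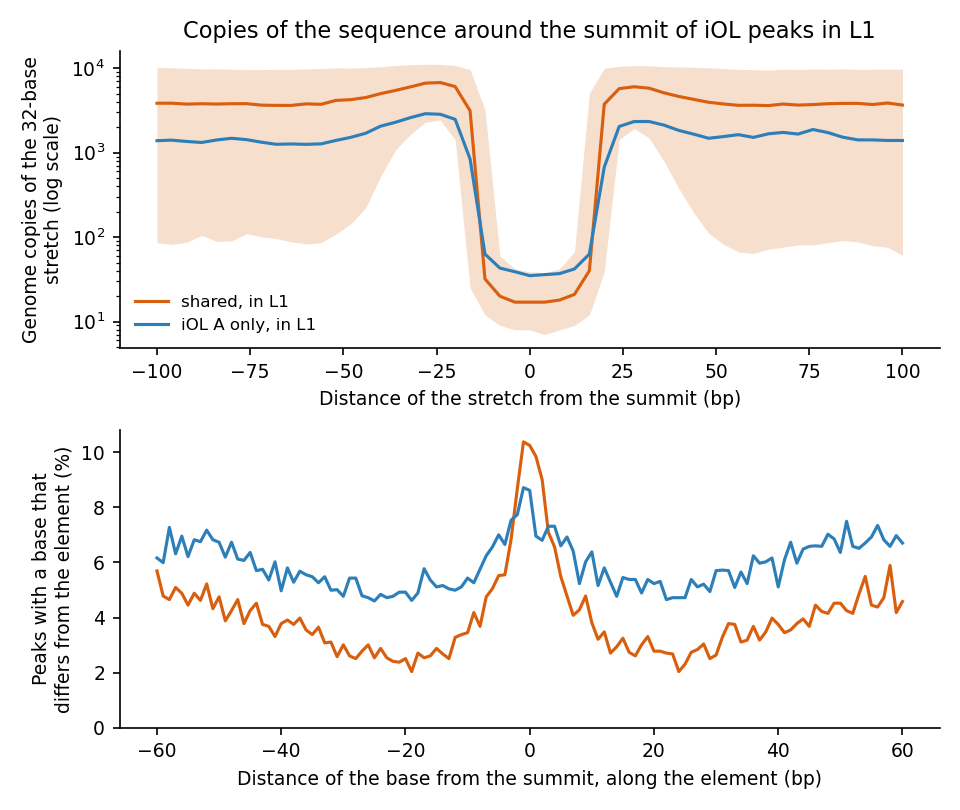
The upper panel gives the median number of genome copies (log scale) of the 32-base stretch centered at each distance from the summit, for shared iOL peaks in L1 (orange, with the interquartile range shaded) and L1 peaks found in iOL A alone (blue). The lower panel gives the percentage of the same peaks, without those near the ends of the element, with a base that differs from the element at each distance. The orange median falls from 6070 at -20 bp to 17 at the summit, where the lower panel rises to 10.37%.

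The shared peaks, most of them in L1, were AT-rich as a whole and held few of the boxes that Krüppel-like factors bind. Their median GC content in 200 bp around the summit was 38.5%, against 41.5% over all 12791934 tiles of 200 bp in the genome. The GC box core CCGCCC, searched on both strands like all motifs here, was in 8 shared peaks (0.245%), against 1.96% of tiles. The CACCC-type core CCACCC was in 5.06% of shared peaks against 10.8% of tiles. The 259 shared peaks outside L1 differed, with a median GC content of 44.5%, CCACCC in 13.5% and CCGCCC in 1.54% of them. Of the other motifs, AGGTCA, the half-site of the thyroid hormone receptor and related receptors, was in 10.95% of shared peaks and 11.1% of tiles. TGANTCA, a motif of AP-1 factors, was in 2.67% against 5.93%, and ACAAAG, a motif of Sox factors, was in 20.95% against 18.0%. A run of 5 CA units was in 0.399% against 3.81%. A match is a description of the letters, and its absence says nothing of the factor.

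Outside L1 there were 259 shared peaks, most of them in repeated sequence that did not align to the element at the summit. Tandem repeats made up 71 of them and other repeated sequence 153, while 19 were partly repeated. A further 10 overlapped a small RNA gene (6 rRNA, 3 miRNA and 1 snRNA genes), 2 held the B box, the internal promoter motif of tRNA genes, and 4 were of single-copy sequence. Over all 3260 shared peaks the B box was in 2 (0.061%, 0.017% to 0.223%), near the 0.0454% of genome tiles that hold it. The peak with the B box near Trim41, which encodes a ubiquitin ligase, lay at chr11:48632032-48632171, -1183 bp from its TSS. It had 9 tags in iOL A, 14 in iOL B, 7 in OLP A and 12 in OLP B. It was thus present in all 4 lists, and it is printed whole on the plus strand with the B box in capitals.
Trim41: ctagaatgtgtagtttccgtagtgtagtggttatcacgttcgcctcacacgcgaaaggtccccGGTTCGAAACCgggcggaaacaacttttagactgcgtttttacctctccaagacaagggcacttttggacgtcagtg

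The largest piles of tags lay outside L1 and had low fold enrichment. Of the shared peaks, 28 had over 100 tags in iOL A or iOL B, and none of these was in L1. The pile at chr15:74915932-74917484, whose nearest listed gene is Ly6c1, held 979 tags in iOL A, 1598 in iOL B and 1077 in OLP A, and was not called in OLP B. Its fold enrichment was 3.66 in iOL A and 2.08 in iOL B. The pile at chr9:35112786-35113186, listed with Fam118b, held 682, 688, 684 and 692 tags in iOL A, iOL B, OLP A and OLP B, at fold enrichments of 4.03, 1.54, 6.37 and 1.94. The shared L1 peaks in contrast held at most 38 tags in iOL A, with a median fold enrichment of 19.85.

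Single-copy sequence was nearly missing from the shared peaks. A peak was counted as single-copy where at most 10% of its stretches of 32 bases occurred again in the genome. Of 720 such iOL A peaks, 5 (0.69%, 0.30% to 1.62%) had an iOL B peak within 500 bp, and of 444 such iOL B peaks 6 (1.35%, 0.62% to 2.92%) had one in iOL A. Among peaks with over 90% repeated stretches, 2702 of 7638 iOL A peaks (35.4%) and 2500 of 3842 iOL B peaks (65.1%) were found again. Median tags were lower in the single-copy peaks, at 7 against 9 in iOL A and 11 against 14 in iOL B.

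The 5 shared single-copy peaks were examined one by one, a choice made after their values were seen. The peak at chr12:121157746-121157892, listed with Tmem196 at -26579 bp, overlapped an annotated ribosomal RNA gene and had 11 tags in iOL A, 13 in iOL B and 8 in OLP A. The peak in the Alkbh2 neighborhood, at chr5:114623013-114623249, -44955 bp from the TSS of this DNA repair enzyme gene, had 17, 13 and 8 tags in these lists. Neither was called in OLP B. The peak at +3237 bp of Rfxank, which encodes a subunit of the RFX complex that activates class II histocompatibility genes, had 9 tags in iOL A and 29 in iOL B. The peak at chr15:24852352-24852545, with no listed TSS, had 10 and 12 tags. Both of these were called in the iOL lists and in no OLP list. The fifth, downstream of Egr1, is described with the gene lists. The Tmem196 and Rfxank peaks are printed whole as the unique sequence that was found in both iOL lists, the first on the minus strand with the ribosomal RNA gene in capitals and the second on the plus strand at chr8:72659791-72659979.
Tmem196: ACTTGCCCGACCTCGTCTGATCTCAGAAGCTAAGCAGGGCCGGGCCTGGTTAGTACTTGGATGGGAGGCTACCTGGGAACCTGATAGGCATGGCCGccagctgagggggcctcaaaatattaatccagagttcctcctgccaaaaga
Rfxank: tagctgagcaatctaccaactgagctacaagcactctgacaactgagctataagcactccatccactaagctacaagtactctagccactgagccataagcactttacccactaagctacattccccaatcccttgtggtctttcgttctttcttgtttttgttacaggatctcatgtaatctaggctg

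Among single-copy peaks outside L1, iOL B held 44 within 2 kb of a TSS. Their median GC content was 50%, and CCGCCC was in 9 of the 44 (20.5%). The corresponding 19 peaks of iOL A had a median GC content of 41.5% and no CCGCCC. In OLP A the motif was in 1 of 25 (4.0%) and in OLP B in 4 of 72 (5.6%). The other core, CCACCC, was alike in the iOL lists, in 4 of 19 peaks in iOL A (21.1%) and 9 of 44 in iOL B (20.5%). It was in 3 of 25 peaks in OLP A and 6 of 72 in OLP B. How often either core occurs in all genome sequence within 2 kb of a TSS was not counted, so enrichment was not tested. Examples in iOL B, named after their values were seen, were Tob2, an antiproliferative protein (+10 bp, 16 tags, fold enrichment 8.46), Ncam1, the neural cell adhesion molecule (+61 bp, 10 tags, 5.29), and Mpdu1, needed for mannose donor use in glycosylation (+318 bp, 16 tags, 10.57), all with CCGCCC. Actb, encoding beta-actin, had a peak at -100 bp (23 tags, 7.9), and the nuclear RNA gene Malat1 at +39 bp (21 tags, 5.1). None of the 44 had a peak within 500 bp in iOL A, so none was seen in both replicates, while those of Malat1 and Egr1 also had one in OLP B.

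Most iOL peaks lay outside the range in which the authors list a TSS. The authors list the nearest TSS when it lies from 50 kb upstream to 5 kb downstream, and 2685 shared peaks (82.4%) had none. Of the others, 55 (1.69%) lay within 5 kb of the TSS and 10 (0.307%) within 2 kb. By the reference annotation, 20.0% of shared summits lay in such a range around a coding gene, against 37.8% of genome bases and 23.4% of L1 bases. Introns of coding genes held 14.7% of shared summits, against 35.7% of genome bases and 18.8% of L1 bases, and exons held 5 summits (0.153%) against 3.01% of bases. For introns and for the range around genes, the shared peaks thus stood nearer to the L1 bases than to the genome.

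The authors' lists name 1776 gene symbols in iOL A and 1099 in iOL B, of which 606 were in both, and 513 had a shared peak. For 432 of the 513 a shared peak was in L1. Among 22225 coding genes of the reference, 6.84% had a listed peak in iOL A, 4.20% in iOL B, 2.30% in both and 1.95% a shared peak. The flank of a gene, here the same range of 50 kb before and 5 kb after its TSS, was 1.45% L1 in the median gene and 26.1% in genes with a shared peak.

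Genes of smell receptors made up a large group. Of 1113 olfactory receptor genes, which encode the odorant receptors of the nose and lie in L1-rich clusters, 148 had a peak in iOL A, 105 in iOL B and 69 (6.20%) a shared peak. Of 321 vomeronasal receptor genes, which encode pheromone receptors, 81, 54 and 31 (9.66%) did. Median L1 content of the flanks was 22.9% and 33.1% in these families. The Zfp zinc finger genes had a shared peak in 12 of 367 cases (3.27%) and the solute carriers in 9 of 353 (2.55%), with flanks of 2.68% and 0.69% L1. Among the 20791 genes in neither receptor family, 1.61% had a shared peak.

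Genes were then grouped by the L1 content of their flanks. From 5% L1 upward, the shares of receptor genes and of other genes with a shared peak lay within each other's intervals. With 5% to 10% L1, 1 of 114 receptor genes (0.877%, 95% Wilson interval 0.155% to 4.80%) and 1.04% of other genes (0.669% to 1.62%) had a shared peak. With 10% to 20% L1, 3.26% of receptor genes (95% Wilson interval 1.83% to 5.75%) and 3.44% of other genes (2.79% to 4.25%) had a shared peak. With 20% to 40% L1 the shares were 6.76% (5.14% to 8.85%) and 7.60% (6.41% to 8.99%). With more than 40% L1 they were 19.3% (14.5% to 25.2%) and 17.2% (13.3% to 21.9%). In genes with no L1 in the flank the share was 0.315%. No receptor gene with up to 5% L1 had a shared peak, among 7, 20 and 39 such genes in the 3 lowest classes. Neighboring genes can share a peak and an L1 copy.

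**Figure D5:**
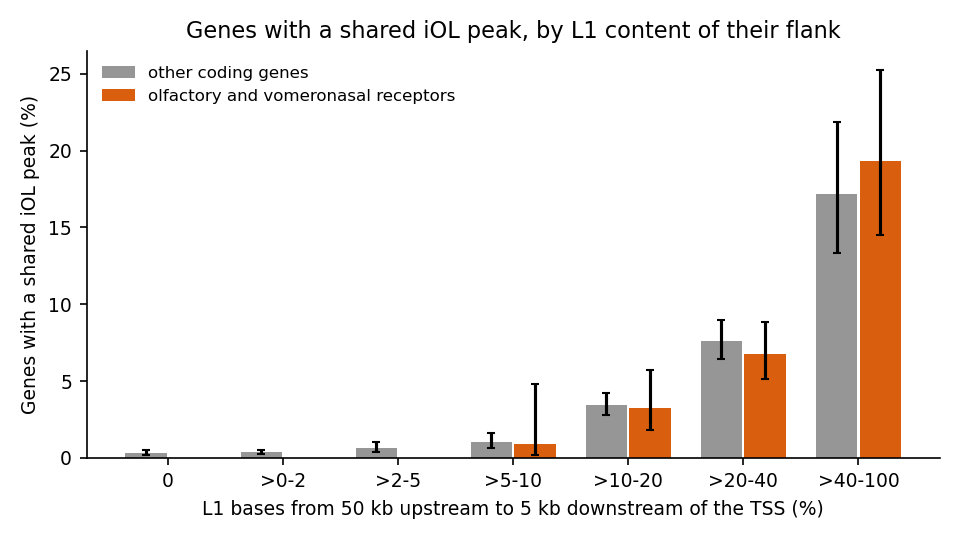
Percentage of reference coding genes with a shared iOL peak, by the percentage of L1 bases in the flank (50 kb before to 5 kb after the TSS), for olfactory and vomeronasal receptor genes (orange) and other coding genes (grey), with 95% Wilson intervals. The receptor classes up to 5% L1, of 7, 20 and 39 genes, are not drawn, and no gene in them had a shared peak. The share climbs from 0.315% without L1 to 19.3% and 17.2% above 40% L1, with overlapping intervals in every class drawn for both groups.

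Several receptor and transporter genes had more than 1 shared peak. Vmn1r60 had 5 and Hnf4g, a nuclear receptor gene of gut and kidney, had 4. Gm14374, Olfr1154, Olfr17 and Slc5a12 had 3 each. These are counts of iOL A peaks, and those of Hnf4g matched 3 distinct iOL B peaks and those of Gm14374 only 1. A pair of the Olfr1154 peaks lay in the same L1 copy of 99.3% identity. The first of them, at -4078 bp, had 15, 27, 17 and 28 tags in iOL A, iOL B, OLP A and OLP B, and the second, at -7153 bp, had 16, 24, 15 and 12. The iOL and OLP tag counts overlapped in the first and not in the second. These counts were not scaled, and how many of all shared peaks lacked overlap was not counted. No difference between stages is therefore read from a single peak.

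Ranked by the lower of their 2 iOL fold enrichments, the leading 10 peaks with a listed TSS and the leading 5 without were all in L1 and in all 4 lists. Without a listed TSS, the leading peak was at chr16:27607859-27608036, with 22 tags in iOL A, 43 in iOL B, 17 in OLP A and 30 in OLP B, and fold enrichments of 44.66, 41.22, 35.91 and 20.64. It lay in a long L1 copy, aligned over 5881 bp. Of peaks with a listed gene, that of Gm20579, a predicted gene, was highest, at chr17:39497038-39497205, -46213 bp from its TSS. It had 27, 35, 26 and 17 tags, at fold enrichments of 64.51, 34.88, 63.2 and 19.15. Pwp1, which encodes a nucleolar protein, had one at -14000 bp with 19, 31, 16 and 26 tags. The iOL and OLP tag counts overlapped in the chromosome 16 and Pwp1 peaks and not in that of Gm20579, on counts that were not scaled between samples. How many of all shared peaks lacked overlap was not counted, so this shows no difference between stages.

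The other peaks of this rank were of the same kind. Olfr503, at +4213 bp, had 20 tags in iOL A and 31 in iOL B, Vmn2r58 had 22 and 29, Vmn1r22 had 19 and 30, and the pseudogene Cyp4a30b-ps had 24 and 32. The transcripts 4833424O15Rik, 9130204L05Rik, 9330182O14Rik and 4931428L18Rik had 14 to 20 tags in iOL A and 30 to 39 in iOL B. All of these lay in L1 and were called in both OLP lists. By tags, the leading L1 peaks with a listed gene were those of Slc40a1, the iron exporter ferroportin (30 and 37 tags, -48302 bp), and Mypn, a muscle sarcomere protein (27 and 35 tags, -12929 bp), with Gm20579 level with Mypn. The remaining peaks of the rank by tags were outside L1, near Ly6c1, Fam118b, 2700054A10Rik, Raet1a, Rnf6, Zfp825 and Dux, with 28 to 979 tags in iOL A.

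Within 2 kb of a TSS there were 10 shared peaks, listed with 9 genes. The peak of Slc24a3, a potassium-dependent sodium-calcium exchanger, had the highest fold enrichment, at chr2:145067099-145067269, -1128 bp. It had 18 tags in iOL A, 31 in iOL B, 15 in OLP A and 24 in OLP B, at fold enrichments of 39.7, 29.6, 23.01 and 24.78, and it was in an L1 copy of 94.6% identity. Olfr1156 and Vmn2r69 had the other L1 peaks, with 12 and 7 tags in iOL A and 10 and 12 in iOL B. Gnb5, a G protein beta subunit (-781 bp, 9 and 10 tags), Prr14 (-1604 bp, 7 and 13), the histone H4 gene Hist1h4h (-663 bp, 14 and 22) and Trim41 were outside L1. Dux, a homeobox gene in a tandem array, had 2 iOL A peaks that matched the same iOL B peak, and the pile at 2700054A10Rik was the last. All but those of Slc24a3, Hist1h4h, Prr14 and Trim41 were missing from at least 1 OLP list.

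Over 10 lists of genes tied to this system, with 195 distinct genes, 20 had a peak in iOL A (10.3%, against 6.84% of all coding genes), 10 in iOL B (5.13% against 4.20%), 4 in both (Mal, Cxxc4, Egr1 and Mthfd2l), and 3 a shared peak (1.54% against 1.95%). Without a list of 20 genes that the study chose on these samples, 8 of 175 genes (4.57%) had a peak in iOL A, 6 (3.43%) in iOL B and 1 (0.571%) a shared peak. Of 37 genes of the oligodendrocyte lineage, 1 had a shared peak. This was Mal, which encodes a proteolipid of compact myelin, at chr2:127498306-127498455, -15920 bp from the TSS. It had 10 tags in iOL A, 15 in iOL B, 19 in OLP A and 14 in OLP B, at fold enrichments of 15.28, 15.86, 41.32 and 15.77. The iOL and OLP counts overlapped, and the Mal peak was in an L1 copy of 95.2% identity. Ermn, an actin-binding protein of myelinating cells, had an L1 peak in iOL B alone (14 tags, -19481 bp).

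Of the 20 genes that the study chose on these samples, 12 had a peak in iOL A (60% against 6.84% of coding genes), 4 in iOL B (20% against 4.20%) and 2 a shared peak (10% against 1.95%). The choice makes these counts no independent evidence. Cxxc4, a CXXC-type inhibitor of Wnt signaling, had its shared peak at chr3:133888068-133888212, -11297 bp, with 7 tags in iOL A and 12 in iOL B and fold enrichments of 12.41 and 9.51. It was not called in either OLP list, and it lay in an L1 copy of 89.7% identity. Egr1, an immediate early zinc finger factor, had its shared peak in single-copy sequence downstream, at +4832 bp in iOL A (8 tags) and +4606 bp in iOL B (11 tags), and the 2 peaks did not touch. It too was not called in OLP. Mthfd2l, a mitochondrial folate enzyme, had 3 iOL A peaks and 1 iOL B peak that lay apart.

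The other lists gave no shared peak. Among 22 genes of gp130 and Stat3 signaling, the receptor pathway upstream of Klf6, the cytokine gene Lif (7 tags, -2522 bp) had a peak in iOL A and the receptor gene Osmr (14 tags, L1) in iOL B, and the shared receptor gene Il6st had none. Among 17 importins, which carry proteins into the nucleus, Kpna1 (48 tags, -1621 bp) and Kpnb1 (8 tags, -28425 bp) had one in iOL A. Among 26 Klf and Sp genes, Sp4 and Sp8 had one in iOL A, and Klf6 itself had none in either list. Among 16 genes of thyroid hormone action, the coactivator gene Ncoa1 (10 tags, -45845 bp) had one in iOL B. Of 35 neural adhesion genes, Cntn4 and Cntnap5c had a peak in iOL A and Ncam1 in iOL B. Of 10 astrocyte, 11 neuron and 8 microglia markers, Slc1a2 had a peak in iOL B and Gad2 in iOL A, and the others had none.

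Most shared iOL peaks were also listed in OLP. OLP A held 81.9% of them (2671), OLP B 63.3% (2064) and both lists 57.1% (1861, 55.4% to 58.8%), while 386 (11.8%) were in neither. The shared peaks in both OLP lists had a median of 12 tags in iOL A and 18 in iOL B, and L1 held 94.1% of them. Those in neither had medians of 8 and 13 tags, and L1 held 87.3%. A peak missing from a list was not called there, and whether that sample's depth could have shown it was not tested. Shared peaks in L1 were in both OLP lists in 58.4% of cases and those outside L1 in 42.1%. The 3378 OLP A peaks within 500 bp of an OLP B peak were in L1 in 90.3% of cases, close to the 92.1% of the iOL.

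Compared sample by sample, no measure of the iOL lists stood apart from the OLP lists by the test. L1 held 69.4% of peaks in iOL A, 79.1% in iOL B, 66.9% in OLP A and 65.9% in OLP B. The iOL mean was 74.3% ± 6.81 (SD, n = 2) and the OLP mean 66.4% ± 0.71, and the groups did not overlap (exact permutation test over samples, two-sided, p = 0.33, adjusted p = 0.94 over 7 measures). With 2 samples against 2 this is the smallest p the design allows. The median GC content was 38.5% in both iOL lists and 38% and 37% in OLP (exact permutation p = 0.33, adjusted p = 0.94). The number of peaks, 8001 ± 3145 in iOL and 10139 ± 3270 in OLP, overlapped between stages, as did median length and the share within 5 kb of a TSS (p = 0.67 for each by the exact permutation test), and median tags and the share with a listed TSS (p = 1.0). Replicate letters differed more than stages in several of these, with median tags of 8 and 8 in the A lists and 13 and 12 in the B lists.

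Across chromosomes, shared iOL peaks followed L1 content in part. Autosomes held 0.688 to 1.63 shared peaks per Mb and were 6.83% to 14.3% L1. Chromosome X, at 23.0% L1, held 2.10 per Mb. Counted per Mb of L1 sequence, X held 8.86 shared L1 peaks and autosomes 6.97 to 12.9. Chromosome Y, of which little is assembled in mm9, held 14 shared peaks. Spearman's correlation between shared peaks per Mb and L1 percentage was 0.71 over the 20 chromosomes without Y and 0.66 over the 19 autosomes, where all points come from the same libraries.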

How the data were processed

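After a filter on base quality, the authors used Bowtie2 for alignment to mm9 and MACS for peaks of each ChIP library relative to input, and added the nearest RefSeq TSS. The submitters' processing notes also name CASAVA 1.8. The version of MACS, the treatment of reads that match several places and the reads per sample are not given in the sources used here. The deposited lists give tags per peak as a whole-number count, a score of 10 times -log10 of the p-value, a fold enrichment that is a linear ratio, and a false discovery rate in percent. Replicates were not pooled, and no column of comparisons between groups was used.

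The members, gene lists and tests were chosen with earlier results of these data known. All listed peaks were used. Peaks at most 500 bp apart were shared. The reference genome (NCBIM37) is the same build as mm9, and its gene annotation differs from that of the authors. Long reading frames were collected from the genome, the copy nearest to their majority was taken as the L1 element, and its copies were found with BLAST 2.17.0 (E value at most 1e-10). A summit inside an alignment counted as in L1. Copies of stretches of 32 bases were counted on both strands, and a peak with more than 50% of its stretches repeated was called repeated. Tandem repeats were sequences that match themselves at a shift of at most 12 bases over more than 80% of the 100 bp around the summit. GC content and motifs were read in 200 bp around the summit, and repeated stretches and small RNA genes over the whole peak. Shares have Wilson intervals (95%), which cover counting error only, and stages were compared by the exact permutation test over samples with Benjamini-Hochberg adjustment. The study calls A and B biological replicates without saying what was separate, and p-values measure only the spread between these samples.

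The peaks and genes named were, of shared peaks with a listed TSS, the 10 highest by the lower of their 2 fold enrichments and by the lower of their 2 tag counts, the 15 highest by fold within 2 kb of the TSS (10 existed), the 5 genes with the most shared peaks (a tie gave 6), list members with a peak in both iOL lists, the 5 highest by fold without a TSS, and Kpna1, Il6st and Klf6. Others are said to be chosen after their values were seen, and a few items are not reported here. Alternatives covered the distance, tag and false discovery limits, repeated peaks, the window width and each sample left out, and those on L1 were added after seeing the data. The overlap, copy counting, motif search and interval steps were tested on simulated data, and the alignment and permutation steps were not. Tools were Biopython 1.88, numba 0.67.0, scipy 1.17.1, matplotlib 3.10.9, pandas 2.3.3, numpy 2.4.6 and Python 3.11.15.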

Additional observations from a re-analysis of the deposited data

How the results depend on the processing

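Of 105 repeats of the reported values under another setting, 75 were counted as unchanged, 28 as moved and 2 as reversed. A change of sign was counted only under the tag and false discovery limits. Differences with 1 sample left out counted as unchanged within the pooled SD, whatever their sign. Some of these changed sign, including the number of peaks (-2138 to 174) and median length (-2 to 1.5 bp) without OLP A. The number of shared iOL peaks was 1979 with at least 10 tags in both lists and 34 without peaks of more than 50% repeated stretches in either list, by construction of fewer peaks, against 3260, and 3050 to 3421 otherwise. Genes listed in both iOL lists numbered 199 from -15 kb to +5 kb of the TSS, 54 within 5 kb and 347 with at least 10 tags, against 606. With 1 iOL list left out, all genes of the other list were counted, 1099 in iOL B and 1776 in iOL A. The share of shared peaks with a peak in OLP was 63.31% to 81.93% with 1 OLP list left out. The share of shared peaks in L1, an alternative set added after seeing the data, was 91.53% to 92.42%. With 1 iOL list left out it was the share over all peaks of the other list, 69.45% in iOL A and 79.07% in iOL B. The median number of summit copies was 16 with the summits of iOL B. The difference in the share with a listed TSS, iOL minus OLP, was 0.07 percentage points, -0.09 with a false discovery rate under 5% and -0.44 with at least 10 tags, and the cause was not tested. In 100 bp windows, fewer bases gave 0.12% of shared peaks with CCGCCC, 2.42% with CCACCC, 5.28% with AGGTCA, 1.60% with TGANTCA, 11.1% with ACAAAG and 0.03% with CA repeats, and over whole peaks 3.47%, 8.53%, 2.15%, 15.21% and 0.21% for the last 5 of these motifs. In the 51 shared iOL A peaks in which at most 50% of stretches were repeated, 10 of them in L1, the 6 shares were 1.96%, 23.53%, 5.88%, 5.88%, 15.69% and 3.92%. The labels do not say that a letter marks a shared batch across stages, although median tags and lengths were alike within letters. With the letter as a block, the difference in the number of peaks stayed -2138, that in L1 7.89 and that in GC content 1 percentage point. Each had p = 0.5 by exact permutation of sign, the smallest that 2 pairs allow. Neither this test nor the unpaired one could call a difference with so few samples, so they do not show whether the letter mattered. Leaving out 1 of the 4 samples, the difference in the number of peaks ran from -4450 to 174 and that in L1 from 3.08 to 12.71 percentage points. The reads per sample are not known, and counts of 7 to 20 tags leave a large counting error on single peaks.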
